A study of Caenorhabditis elegans with 2 samples.

Results

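The nonsense-mediated decay genes of Caenorhabditis elegans described here were smg-1, smg-2, smg-3, smg-4, smg-5, smg-6, smg-7, smg-8, smg-9 and smgl-2. These 10 genes were taken from a list of symbols, all 10 were found in the Ensembl annotation of the assembly WBcel235, and they stand among 19973 protein-coding genes of the 6 nuclear chromosomes. The data are chromatin immunoprecipitation sequencing (ChIP-seq) of the protein F16B12.6 carrying an eGFP tag, from 2 biological replicates of whole L1 larvae of mixed sex. The worms were of strain OP114, which is unc-119(tm4063) III and carries the transgene wgIs114, so both replicates share the unc-119 mutation and the tagged transgene. A whole-larva sample does not show in which cells a peak arose, and the peaks are those of the tagged copy. Both replicates form 1 group, and no untagged worms were analysed here, so the comparisons are between genes, between replicates and between lists of peaks.

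Nonsense-mediated decay destroys messenger RNAs whose translation ends at a premature stop codon. In worms the first smg genes were found by mutations that let such RNAs persist, and they gave the pathway its founding components. The kinase SMG-1 phosphorylates the RNA helicase SMG-2, the worm UPF1, which acts with SMG-3 (UPF2) and SMG-4 (UPF3), while SMG-5, SMG-6 and SMG-7 act after phosphorylation and SMG-6 cuts the RNA. SMG8 and SMG9 are known from human cells as partners of the SMG1 kinase. The gene smgl-2 encodes the worm relative of the helicase DHX34 and, unlike the smg genes, belongs to the pathway members needed for viability.

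A gene is called bound here when a peak summit, the position of highest signal, lay from 1000 bp upstream to 200 bp downstream of its annotated 5' end in the authors' thresholded list of 2183 peaks. Of the 10 genes, 4 were bound (40%): smgl-2, smg-8, smg-1 and smg-2. Among all protein-coding genes 2356 were bound, which is 11.8% (95% Wilson interval 11.4 to 12.3%, counting error only). The interval treats genes as independent, although a summit can lie in the windows of several genes. The 10 genes were chosen with earlier results of these data known, so the 2 shares are a description. The 4 peaks were far from equal. They ranked 2, 622, 1511 and 1977 of 2183 by the signal value that the authors' peak caller gave, so smgl-2 had nearly the strongest peak in the genome and smg-2 a peak close to the weak end of the list. No read numbers are given in the sources used here; the depth behind each value is unknown.

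The sequences at the peaks of smgl-2 and smg-8 are shown because these 2 genes had the strongest peaks and the summits closest to a 5' end. Each is 151 bases of the plus strand of WBcel235 (RefSeq sequence), centred on the summit and read in the direction of the gene, and both lie in intergenic DNA. Capitals mark any match, on either strand, to the 12 sequences of 8 bases that were found at more thresholded summits than in windows 200 bp to their sides by the widest margin. The smgl-2 stretch is chrIV:3725976-3726126 and the smg-8 stretch is chrII:14441244-14441394.
smgl-2: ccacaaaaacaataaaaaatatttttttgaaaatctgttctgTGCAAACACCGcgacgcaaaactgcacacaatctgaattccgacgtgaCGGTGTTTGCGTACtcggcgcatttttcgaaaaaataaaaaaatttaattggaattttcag
smg-8: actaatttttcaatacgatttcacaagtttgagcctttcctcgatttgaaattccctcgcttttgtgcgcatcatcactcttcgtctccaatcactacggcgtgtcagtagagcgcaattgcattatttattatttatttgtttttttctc

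The smgl-2 summit held the 8 bases GCAAACAC on the plus strand, starting 32 bp before the summit, and again on the minus strand, starting 17 bp after it, where the plus strand reads GTGTTTGC. The copies faced each other with 41 bases between them. Each copy was part of a matching stretch of 10 bases, GCAAACACCG on the left and its reverse complement CGGTGTTTGC on the right. GCAAACAC, the 8 bases with the widest margin of all, lay in the 100 bp centred on 340 of 2183 thresholded summits (15.6%) and on 60 of the 100 strongest (60%). It lay in 0.734% of the 27802 weaker pooled entries that overlapped no thresholded peak, and in 0.696% of the 100 bp just before all protein-coding 5' ends. A second copy was uncommon: 7 thresholded summits had 2 or more, and in 3 of these, at ranks 2, 31 and 764, the copies faced each other. The 8-base sequences were picked on these same peaks, smgl-2 among them, so the shares are a description.

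The smg-8 summit held none of the 12 sequences in its central 100 bp, and neither did those of smg-1 and smg-2. That was the commoner case, since 704 of the 1661 thresholded promoter summits (42.4%) held any of them. The 6 bases ACGCAG are contained in AGACGCAG and GACGCAGA, both among the 12 sequences picked on these same peaks. They lay at 17.6% of thresholded promoter summits and in 2.79% of the 100 bp before all protein-coding 5' ends. These shares are likewise a description, and ACGCAG was found at none of the 4 bound genes' summits. The G and C content of the central 100 bp was 45% at smgl-2, 47% at smg-8, 41% at smg-1 and 40% at smg-2, against a median of 47% (quartiles 42 and 52%) for thresholded promoter summits. A match says only that the letters are present in the window.

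The gene smgl-2 (WBGene00021365), the DHX34 relative, lies at 3726164 to 3735496 on the plus strand of chromosome IV. Its peak had a signal value of 1316 in the pooled list, 796 in replicate 1 and 528 in replicate 2. Signal values were compared only within a list, where the highest values were 1543, 866 and 684. It ranked 2 in the pooled list, 2 in replicate 1 and 3 in replicate 2, so both replicates placed it at the very top. The peak spanned 3725905 to 3726183 of chromosome IV (ce11). Its summit lay 113 bp upstream of the 5' end of smgl-2 (relative position -113 bp) in the pooled list, at -110 bp in replicate 1 and at -115 bp in replicate 2. The summit also lay in the window of Y37E11AM.2, which starts on the other strand, 702 bp away, but at a greater distance (-590 bp).

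Among thresholded promoter peaks, those whose ranks in the 3 lists were most like smgl-2's were found by the smallest summed log2 ratio of the ranks. They were the peak between the chaperonin gene cct-8 and Y55F3AR.2 (ranks 3, 4 and 2 in the pooled list, replicate 1 and replicate 2), that of F59A6.11 and citk-2 (rank 5 in each) and that of chmp-7 (rank 1 in each). GCAAACAC was present in the 100 bp at the chmp-7 and citk-2 summits, in 1 copy each, and absent at cct-8. The 101 bases centred on 3 summits show the difference, on the plus strand and with the same capitals: chrII:9054757-9054857 at chmp-7, chrII:4999290-4999390 at citk-2 and chrIV:1094307-1094407 at cct-8.
chmp-7: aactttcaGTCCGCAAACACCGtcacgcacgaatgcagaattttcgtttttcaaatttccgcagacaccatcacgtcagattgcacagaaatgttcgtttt
citk-2: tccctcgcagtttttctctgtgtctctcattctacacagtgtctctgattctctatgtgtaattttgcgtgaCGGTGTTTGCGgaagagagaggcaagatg
cct-8: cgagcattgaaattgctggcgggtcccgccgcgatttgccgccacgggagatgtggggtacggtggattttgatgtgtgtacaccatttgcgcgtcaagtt

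The peak of smg-8 (WBGene00010551, plus strand of chromosome II, 14441409 to 14447233) was of middle strength. Its signal value was 99.95 in the pooled list, 62.7 in replicate 1 and 36.4 in replicate 2, and its ranks were 622, 601 and 656. It was stronger than 71.5% of the thresholded peaks, and the replicate ranks differed 1.09-fold. It spanned 14441194 to 14441443 of chromosome II, with the summit at -90 bp in the pooled list, -79 bp in replicate 1 and -99 bp in replicate 2. No other protein-coding window held this summit, so of the 4 bound genes smg-8 was the one whose peak was shared with no neighbour. A second, weak entry at -565 bp ranked 18360 in the pooled list and 4034 in replicate 1, and had no counterpart in the window in replicate 2.

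**Figure D1:**
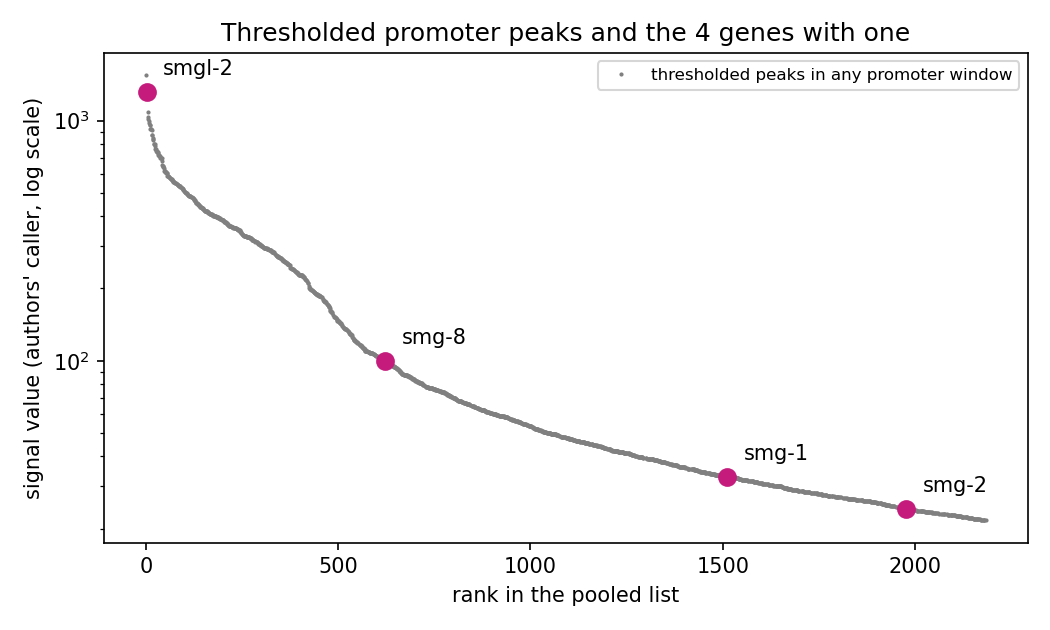
Signal value given by the authors' caller (log scale) against rank in the pooled list for the 1661 thresholded peaks with a summit in any promoter window (grey), with the 4 bound nonsense-mediated decay genes in colour. The smgl-2 peak (rank 2, signal 1316) lies at the top left, and smg-8 (99.95), smg-1 (33.01) and smg-2 (24.2) follow down the curve.

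The kinase gene smg-1 (WBGene00004879, minus strand, 6900949 to 6913579 of chromosome I) had a peak on the weaker side of the thresholded list, with a signal value of 33.01 in the pooled list, 19.5 in replicate 1 and 14.7 in replicate 2. The median over thresholded promoter peaks in the pooled list was 56.3. Its ranks were 1511, 1561 and 1395, which places it above 30.8% of the thresholded peaks, and the replicates differed little in rank. The peak lay at 6914030 to 6914279 of chromosome I, in the 1463 bp between smg-1 and haps-1, which are transcribed away from each other. The summit was -576 bp from smg-1 and -888 bp from haps-1, inside both windows and nearer to smg-1.

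The helicase gene smg-2 (WBGene00004880, plus strand, 1176473 to 1190829 of chromosome I) had the weakest of the 4 peaks and the one whose replicate ranks differed by the largest ratio. Its signal value was 24.2 in the pooled list, 16.4 in replicate 1 and 5.58 in replicate 2, with ranks of 1977, 1831 and 4590. The lowest signal value in the thresholded list was 21.7. In replicate 2 the entry thus fell below the 2183 strongest, the lowest of which had a signal value of 9.09. The ranks differed 2.51-fold, against a median of 1.25-fold and a 90th percentile of 2.13-fold over the 2159 thresholded peaks found in both replicates. Of 194 such peaks ranked within 100 places of smg-2, the smg-2 peak included, 89 ranked below 2183 in replicate 2. Replicate 1 had a further weak entry in the window, at -965 bp (rank 15211).

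The smg-2 peak was also closer to another gene. It lay at 1175733 to 1175982 of chromosome I, with the summit -615 bp from smg-2 and -49 bp from haf-6, an ABC transporter gene transcribed in the opposite direction from a 5' end 663 bp away. The replicate summits at -591 and -604 bp were 13 bp apart. Assigned only to the nearest 5' end, this summit belonged to haf-6, and 3 of the 10 decay genes were bound, against 8.11% of all genes. With a window of 500 bp upstream, smg-1 and smg-2 were both lost and 2 of 10 were bound, against 9.94%.

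Each replicate alone gave nearly the same set. The thresholded list was made with these same replicates, so this likeness is a description and no independent check. Among the 2183 strongest entries of replicate 1, smgl-2, smg-8, smg-1 and smg-2 had a summit in the window (4 of 10), against 11.7% of all genes. Among those of replicate 2, smgl-2, smg-8 and smg-1 did (3 of 10), against 11.3%. Between replicates the summits of the 4 peaks lay 5 bp apart at smgl-2, 20 bp at smg-8, 19 bp at smg-1 and 13 bp at smg-2.

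**Figure D2:**
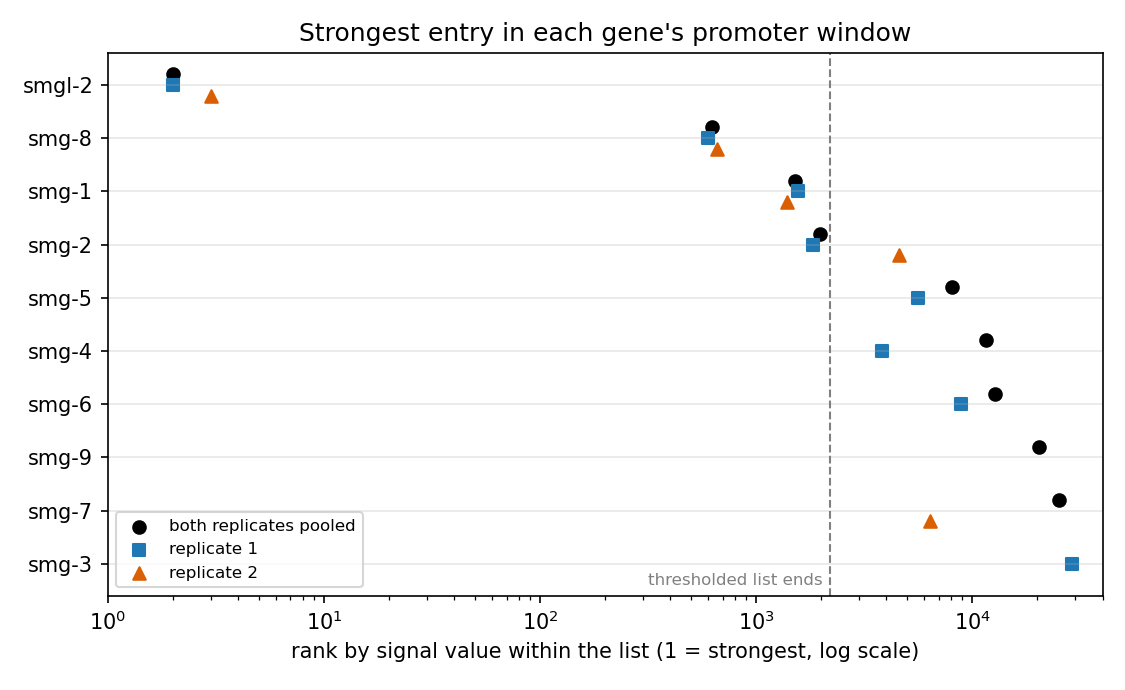
Rank by signal value (1 is strongest, log scale) of the strongest entry in the promoter window of each of the 10 genes, in the pooled list (circles) and in each replicate (squares and triangles); a missing symbol means no entry in the window, and the dashed line marks the end of the thresholded list at 2183. The symbols of smgl-2, smg-8 and smg-1 lie close together, those of smg-2 straddle the line, and the other 6 genes lie to its right or have none.

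The other 6 genes, smg-3, smg-4, smg-5, smg-6, smg-7 and smg-9, had no thresholded summit in the window. The relaxed lists, which run to 30000 entries each and take in background as well as peaks, gave them only weak entries. In the pooled relaxed list 9 of the 10 genes had a summit in the window, against 41.0% of all genes, and in replicate 1 this was so for 8, against 41.3%. In replicate 2 it was so for 5, against 40.2%, and 4 of these 5 were the bound genes. With these windows, set at the Ensembl 5' ends, none of the 6 unbound genes had a window entry in both replicates. The share for all unbound genes was not computed.

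The UPF2 gene smg-3 (WBGene00004881, minus strand, 6362395 to 6373093 of chromosome IV) had no entry in the window in the pooled list or in replicate 2, and 1 in replicate 1, at -850 bp with rank 29034 and a signal value of 3.13, where the lowest of the list was 3.06. The UPF3 gene smg-4 (WBGene00004882, minus strand, 9775935 to 9777745 of chromosome V) had an entry at -224 bp with rank 11504 and signal 6.95 in the pooled list. The same site ranked 3821 in replicate 1 (signal 8.10), the best rank of any unbound member's window entry in any list, but had no entry in replicate 2. Neither gene had an entry in its window in replicate 2. The nearest replicate 2 entry lay just outside the window at smg-3, at -1019 bp (rank 8441, signal 4.29). At smg-4 it lay 1028 bp inside the gene (rank 11556, signal 3.74).

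Of the 3 genes that act after SMG-2 phosphorylation, smg-5 (WBGene00004883, minus strand, 6734028 to 6736161 of chromosome I) had pooled entries at -171 bp (rank 8084, signal 8.01) and 190 bp inside the gene (rank 15917, signal 6.08). Only the second was near an entry of replicate 1 (160 bp inside, rank 5600), and neither was in replicate 2. The endonuclease gene smg-6 (WBGene00004884, plus strand, 2473854 to 2486622 of chromosome III) had pooled entries at -265 bp (rank 12696, signal 6.68) and -918 bp (rank 24966, signal 4.93), with counterparts in replicate 1 at ranks 14160 and 8837 and none in replicate 2. At smg-7 (WBGene00004885, minus strand, 6740531 to 6742443 of chromosome IV) a pooled entry at -9 bp ranked 25128 (signal 4.91). It ranked 6392 in replicate 2 (signal 4.84) and was missing from the window in replicate 1. The median signal value of the pooled relaxed list was 6.24 and the lowest 4.47. The entries at -171 bp of smg-5 and at -265 bp of smg-6 lay above the median. The second entry of smg-5 lay below it, and the second of smg-6 and that of smg-7 were near the lowest value.

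The window of smg-9 (WBGene00013188, minus strand, 14746890 to 14752849 of chromosome II) depended on which 5' end was used. With the Ensembl 5' end, the pooled list had 1 entry in the window, at -639 bp with rank 20329 and signal 5.46, and neither replicate had any. The RefSeq 5' end lies 360 bp further into the gene. Near it, 137 bp inside, the pooled list had an entry of rank 13745, and the replicates had entries of ranks 25490 and 15367 at nearly the same place. All 3 ranks are far below the thresholded list, so smg-9 was unbound with either 5' end.

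**Figure D3:**
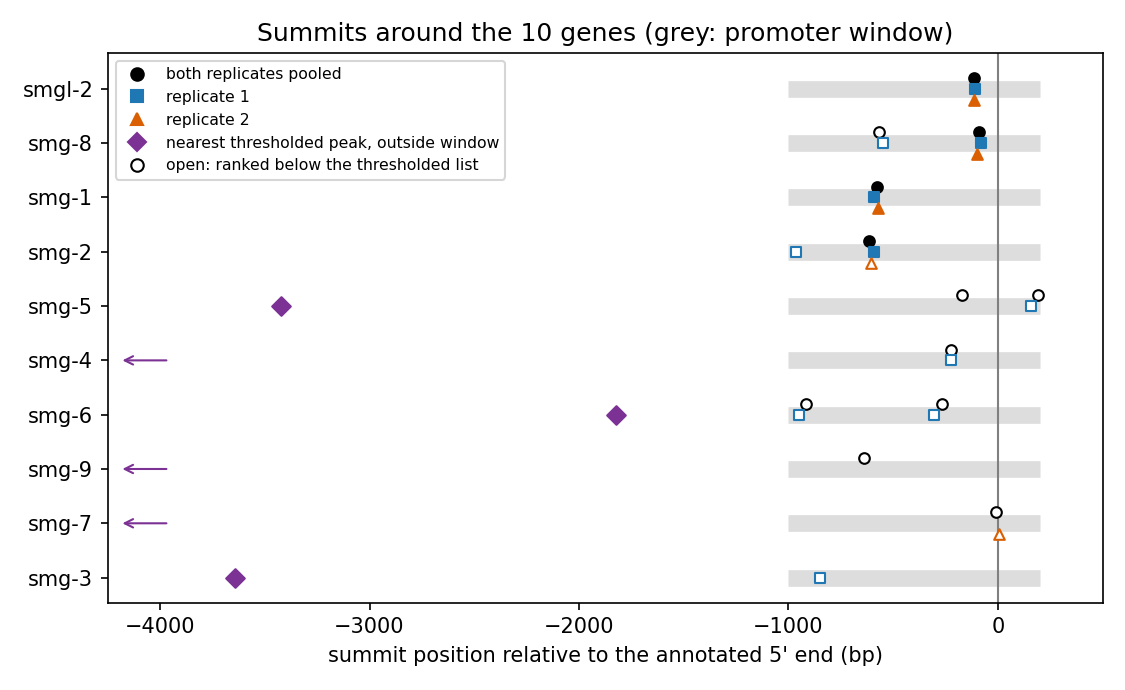
Summit positions relative to the annotated 5' end (bp) for the 10 genes; grey bars are the promoter windows, filled symbols are entries ranked within 2183 of their list, and open symbols are weaker entries. Diamonds mark the nearest thresholded peak where it lay outside the window, 1824 bp upstream at smg-6 being the closest, and arrows mark smg-4, smg-7 and smg-9, whose nearest one was at least 12275 bp upstream.

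The arrangement of neighbouring genes was compared after the peaks had been seen, and no test was made on it. At 4 of the 6 unbound genes the next protein-coding gene upstream ran on the same strand and ended within 200 bp of their 5' end. The gap was 40 bp from hrpf-2 to smg-3, 114 bp from F46B6.4 to smg-4, 93 bp from lin-45 to smg-7 and 41 bp from tac-1 to smg-9. None of these 4 was bound, and of all 2456 genes with such a neighbour 6.76% were. Of the 5 genes whose upstream neighbour ran on the opposite strand, 4 were bound (smg-5 was not), against 17.9% of 9232 genes. The remaining unbound gene, smg-6, had a free upstream region of 4361 bp. The lists of neighbours come from gene positions alone, and whether these genes share a transcript was not tested.

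Some of the closely spaced genes had a thresholded peak before the first gene of their row. Upstream of smg-3, the peak ranked 113 (signal 485; 121 in replicate 1, 98 in replicate 2) lay -212 bp from hrpf-2 and -330 bp from bli-6, which runs the other way. This was 3642 bp from the 5' end of smg-3. Upstream of smg-4, the row of F46B6.4, F46B6.5, F46B6.6 and ztf-7, with gaps of at most 500 bp, began at ztf-7, where a peak ranked 682 (signal 86.6; ranks 643 and 933 in the replicates) lay at -313 bp, 12275 bp from smg-4. The windows of lin-45, the Raf kinase gene before smg-7, and of tac-1, the centrosome gene before smg-9, held no thresholded summit. Thus 2 of the 4 rows had a bound first gene. Each of these first genes had an upstream neighbour on the opposite strand, and of all 9232 such genes 17.9% were bound. The share for first genes of rows in general was not computed, and a link of these peaks to smg-3 or smg-4 was not tested.

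The closest miss was at smg-6. A peak ranked 118 in the pooled list, 119 in replicate 1 and 116 in replicate 2, with signal values of 480, 286 and 190.1, had its summit 1824 bp upstream of smg-6. It lay in intergenic DNA, outside every promoter window, and the 5' end of smg-6 was the nearest protein-coding one. With a window of 2000 bp upstream smg-6 was bound, which made 5 of 10, against 14.5% of all genes. The smg-5 gene had its nearest thresholded peak 3423 bp upstream, in an intron of its neighbour dhod-1, with rank 2080 (1926 in replicate 1 and 3183 in replicate 2).

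The peaks upstream of smg-6 and smg-3 are shown because they were the strongest of the nearest peaks outside the windows of the unbound genes. Each held 2 of the 12 sequences, of which 1 at smg-6 and none at smg-3 was among the 6 found at smgl-2. Each is 101 bases of the plus strand centred on the summit, chrIII:2471980-2472080 for smg-6 and chrIV:6376685-6376785 for smg-3, with capitals as before.
smg-6 upstream peak: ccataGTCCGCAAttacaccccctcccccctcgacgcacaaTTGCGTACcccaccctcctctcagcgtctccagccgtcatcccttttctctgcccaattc
smg-3 upstream peak: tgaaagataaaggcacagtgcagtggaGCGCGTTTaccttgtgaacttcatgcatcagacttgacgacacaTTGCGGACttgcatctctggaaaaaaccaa

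The smg-6 upstream peak held GTCCGCAA and TTGCGTAC, the reverse complement of GTACGCAA, which stood at 7.92% and 7.97% of thresholded summits. The smg-3 upstream peak held the reverse complements of GTCCGCAA and AAACGCGC. Neither held GCAAACAC, and TTGCGTAC was also present at smgl-2. Of the nearest thresholded peaks of the other unbound genes, that of smg-5 (rank 2080) held 5 of the 12 and that of smg-9 (rank 173, 42233 bp upstream) held 4, GCAAACAC among them in both. Those of smg-4 (rank 682) and smg-7 (rank 1006) held none. The strongest window entries of smg-4, smg-5, smg-6, smg-7 and smg-9 held none of the 12, as was the case for all but 4.61% of the weaker pooled entries.

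Genes of 9 related lists were also often bound. The lists cover messenger RNA decay and surveillance, but also RNA export, SR proteins and relatives of the SMG-1 kinase. Of the 10 decay genes 4 were bound and of the 84 genes in 9 related lists 46 were (54.8%), against 11.8% of all genes. The lists, like the 10 genes, were chosen with earlier results of these data known. The shares are thus a description, with no test between lists. Of 6 further genes linked to the pathway 4 were bound. These were smgl-1, the worm relative of human NBAS (signal 329.5, rank 260), the helicase gene ruvb-1 (267), the phosphatase 2A scaffold gene paa-1 (187) and ruvb-2 (87.2), while clk-2 and let-92 were not. With the nearest 5' end only, paa-1 was not bound. The smgl genes, smgl-1 and smgl-2, thus both had strong peaks.

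The lists closest to the trigger of decay were bound as follows. Of 6 genes for stop codon recognition, ribosome recycling and ABCF proteins 5 were bound, led by abcf-1 (269), abcf-2 (103) and abcf-3 (74.1). The abcf-1 and abcf-2 summits also lay in windows of other genes. Counted for the nearest 5' end only, abcf-3 alone was bound. The release factor gene erfa-1 was bound (55.7) and erfa-3 was not. Of 11 exon junction and RNA export genes 4 were bound, led by the export receptor gene nxf-1 (533), the exon junction gene mag-1 (337) and hel-1 (69.2). The exon junction genes rnp-4 and eif-4A3 were not bound. Of 6 genes that act on stalled ribosomes 4 were bound, led by skih-2 (327), nonu-1 (243) and ttc-37 (28.9). With the nearest 5' end only, nxf-1 and nonu-1 were not bound.

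The next lists cover genes of RNA degradation, and relatives of the SMG-1 kinase. Of 17 decapping and 5' to 3' decay genes 8 were bound, led by edc-4 (556), lsm-6 (364) and cgh-1 (63.9), while the decapping enzyme gene dcap-2 and the exonuclease genes xrn-1 and xrn-2 were not. Of 14 deadenylation and poly(A)-binding genes 7 were bound, led by panl-3 (610, rank 51), ntl-11 (89.5) and ntl-2 (77.4). Of 12 exosome genes 5 were bound, led by exos-4.1 (469), exos-3 (307) and exos-2 (64.97). Of 4 other genes of the SMG-1 family trr-1 (71.6) and atm-1 (66.5) were bound. When a summit counted for the nearest 5' end only, exos-4.1, exos-3, trr-1 and atm-1 were not bound.

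SR protein genes, whose splice forms include known targets of nonsense-mediated decay in several species, were bound in 7 of 8 cases. The values were led by rsp-6 (88.7), rsp-8 (88.5) and a peak that rsp-1 and rsp-2 share (88.4), and rsp-4 was unbound. Each of these lay below smg-8 (99.95) in the pooled list, and the smgl-2 peak exceeded every bound gene of the 9 lists, the highest of which was panl-3. Many of these peaks lay between 2 genes and were counted for both. When a summit counted for a single gene, the one whose 5' end was closest, 27 of the 84 were bound, against 8.11% of all genes. By list this was 3 of 6 further pathway genes, 1 of 6 termination and ABCF genes and 2 of 11 exon junction and export genes. It was 3 of 6 for stalled ribosomes, 4 of 17 for decapping and 7 of 14 for deadenylation. For the exosome it was 2 of 12, for SR proteins 5 of 8 and for the SMG-1 family 0 of 4.

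**Figure D4:**
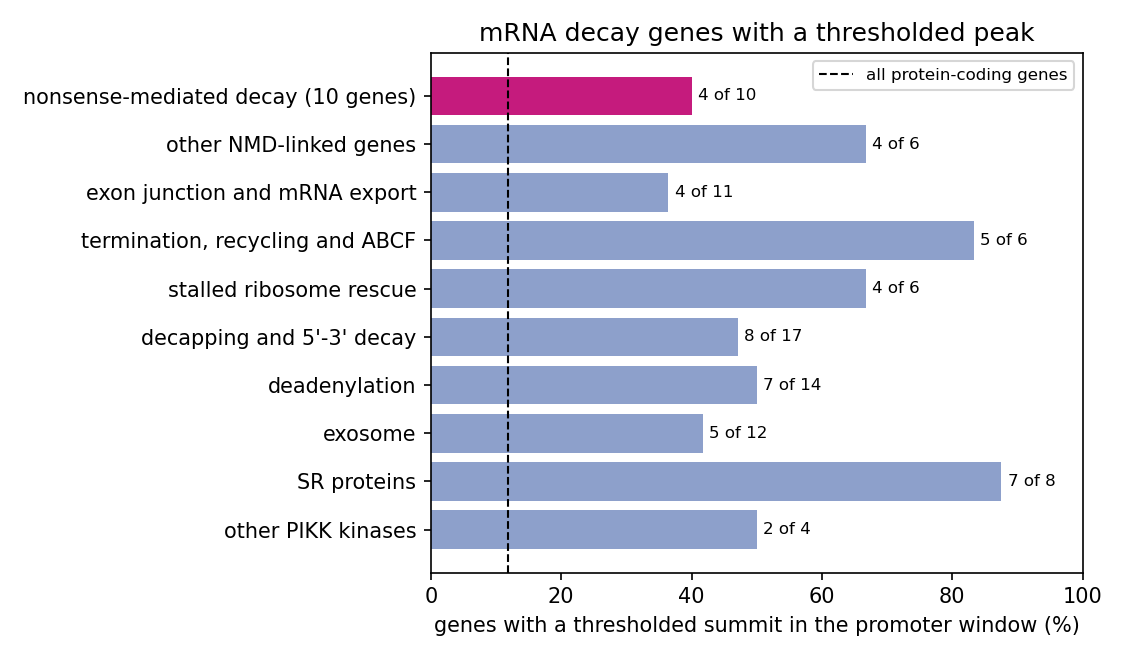
Share of genes (%) with a thresholded summit in the promoter window for the 10 nonsense-mediated decay genes (top) and for the 9 lists of related genes, with the number bound of the number in the list beside each bar; the dashed line is the share of all protein-coding genes, 11.8%. All 10 bars lie above the line, from 36.4% for exon junction and export genes to 87.5% for SR proteins, with the decay genes at 40%. The 10 genes and the lists were chosen with earlier results of these data known, so the shares are a description.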

How the data were processed

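The authors made a relaxed list for each replicate by setting its alignments against 1 control file, per the deposited readmes. They made the pooled one from both replicates and the thresholded (optimal IDR) list from all 3. Aligner, caller and IDR threshold: not given in the sources used here. Column 7 of the deposited lists was taken for the peak caller's signal, of unstated scaling. The deposited −log10 q values (column 9) did not serve for ranking, since every thresholded peak has the same one. All 2183 thresholded peaks were in the pooled relaxed list with the same interval, value and rank.

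Summits (column 2 plus column 10, made 1-based) on ce11 were placed in promoter windows of Ensembl release 115 genes. Entries were ranked by column 7 within a list, and no test was made over the members. The window assignment was tested on simulated data. The 9 related lists were searched by 98 symbols, of which 13 had no match. Members and lists were chosen with earlier results of these data known. Named genes were the members, their neighbours at a peak, up to 3 bound genes per list, and the 3 peaks most like smgl-2's in rank; genes named as unbound, ruvb-2 and erfa-1 were added after their values were seen. The lists on ce10 were not used here. Python 3.11.15, NumPy 2.4.6 and SciPy 1.17.1 were used.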

Additional observations from a re-analysis of the deposited data

How the results depend on the processing

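The count of bound decay genes (4 of 10) moved to 2 with a 500 bp upstream window and to 2 with the 1091 strongest thresholded peaks alone, where smgl-2 and smg-8 were left each time. It was 5 with a 2000 bp window, 3 with the nearest 5' end, 3 to 4 with a single replicate, and 4 with the 5' ends of all coding transcripts, with any overlap of peak and window and, an alternative added after the data were seen, with RefSeq 5' ends. The share of all genes, 11.8%, moved to 9.94% and 14.5% with the 500 and 2000 bp windows, 12.3% with all transcripts and 12.3% with any overlap, 8.11% with the nearest 5' end, 6.83% with the 1091 strongest peaks, and 11.3 to 11.7% with a single replicate. The 46 bound genes of the related lists became 39 with the 500 bp window and 55 with the 2000 bp window. They became 27 with the nearest 5' end and 30 with the 1091 strongest peaks, and 43 to 47 with a single replicate. The count of 9 members in the pooled relaxed list was 6 with the 500 bp window (30.7% of all genes), 10 with the 2000 bp window (54.9%), 7 with the nearest 5' end (34.2%), 9 with all transcripts (44.5%), 9 with any overlap (45%) and 9 with RefSeq 5' ends. GCAAACAC was at 1 bound member, smgl-2, in windows of 60, 100 and 200 bp. Ranking by column 8 was not run, since that column is -1 throughout. Unknown depth limits all weak entries.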

Other observations

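Inside the genes, outside the promoter windows, the pooled relaxed list had entries just under the thresholded list at 2 unbound members. At smg-3 an intronic entry 3381 bp into the gene ranked 2539 (signal 18.05), and at smg-6 an intronic entry 3668 bp into the gene ranked 2581 (signal 17.6), where the weakest thresholded peak had a signal of 21.7. Each of these genes, 10699 bp and 12769 bp long, had 6 pooled entries in its body outside the window. The long genes smg-1 (12631 bp) and smg-2 (14357 bp) had 1 each, at ranks 15696 and 12406, and smg-7 had 2. The share over all genes was not computed. The strongest body entry was far weaker at smg-9 (rank 6337, intronic) and smgl-2 (rank 5124, in a coding exon), and smg-4, smg-5 and smg-8 had none.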
